A study of Mus musculus with 48 samples.

Results

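The comparison described here is that of prenatal androgen with vehicle in the GnRH neuron immunoprecipitate (IP) of adult female mice. Its members are 11 of the 48 libraries of the series, chosen by their titles: 6 IP libraries of adult mice exposed before birth to dihydrotestosterone (DHT), and 5 of adult mice whose prenatal treatment was vehicle. All 11 carried the same alleles, a Cre recombinase in GnRH neurons and a floxed-stop L10a-GFP, which puts a GFP tag on a ribosomal protein wherever Cre has acted, and all came from the preoptic area of mice collected in diestrus. The libraries set beside them were 12 IP libraries of young mice (6 DHT and 6 vehicle) and the 11 supernatants depleted of GnRH neuron RNA from the same adult conditions. A further 1 was an IP library without Cre, also of the young age, so it is not matched in age to adult IP. Replicates are labelled biological, but whether each was a single animal is not stated, and p-values cover only the spread among these libraries, which may be technical. One label speaks of tissue from both sexes, but 4 Y-linked genes summed to at most 0.0250 CPM (counts scaled to the library total) in any adult IP library.

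GnRH neurons are the final output of the brain to the reproductive axis: they release gonadotropin-releasing hormone in pulses, and the pulse pattern sets how much luteinizing and follicle-stimulating hormone the pituitary secretes. Dihydrotestosterone is an androgen that is not converted to estradiol, and female mice exposed to it before birth are used as a model of features of polycystic ovary syndrome, among them disturbed cycles. Ion channels that set firing, GABA and glutamate inputs, kisspeptin signalling and co-released peptides such as galanin are all known regulators of GnRH neuron activity.

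In adult GnRH neuron IP, 1 of 15890 genes tested passed the threshold between DHT and vehicle mice (edgeR adjusted p below 0.05, 0.00629% of the genes), and it was Scube3, which was lower after DHT. Scube3 encodes a secreted protein with EGF-like repeats and a CUB domain that has been linked to TGF-beta and BMP signalling. The gene spans bases 28142141 to 28174854 of chromosome 17 (plus strand, GRCm38), and 2.24% of its exon bases are shared with an antisense gene. The 300 bases around its RefSeq start (GRCm38.p6, chr17:28142059-28142358, plus strand) are shown because it is the only gene that was called. The 50 bases from the RefSeq start onward are in capitals. The gene span above, from GENCODE, begins before the RefSeq start, so some lower-case bases lie inside that span.
Scube3: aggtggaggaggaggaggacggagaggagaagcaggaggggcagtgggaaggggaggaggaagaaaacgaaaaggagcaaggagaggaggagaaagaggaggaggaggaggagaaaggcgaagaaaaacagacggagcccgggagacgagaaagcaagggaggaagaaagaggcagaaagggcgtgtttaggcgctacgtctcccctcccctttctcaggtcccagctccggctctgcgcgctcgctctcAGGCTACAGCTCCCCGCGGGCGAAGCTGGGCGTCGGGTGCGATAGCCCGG

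Scube3 stood at 0.05, 0.00, 0.07, 0.00, 0.06 and 0.06 CPM in the 6 DHT libraries, against 2.42, 9.04, 13.2, 2.23 and 4.92 CPM in the 5 vehicle libraries. Every DHT library lay at or near 0 and every vehicle library well above, with no overlap. The DHT libraries held 9 reads of the gene in all, at most 3 in a library, and the vehicle libraries 1210, between 89 and 476 each. DHT over vehicle gave a log2 fold change of -7.21 ± 1.11 (SE, edgeR adjusted p = 0.0130), and the pooled vehicle level was 151-fold the DHT level (95% interval 79.4 to 332, counting error only).

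This call rests on a spread estimated from all 23 IP libraries together, young ones included, and adult IP libraries varied more. The biological coefficient of variation was 89.6% in the 11 adult IP libraries and 62.2% in the 12 young ones. With the adult IP libraries alone the fold change was -7.18 ± 1.21 and the edgeR adjusted p was 0.497, and limma-voom with sample weights gave an adjusted p of 0.287. The adult-only fit had 440 genes (3.11%) at an unadjusted p below 0.05 and called none. The call was also lost, at adjusted p = 0.0592 and 0.0509, when DHT replicate 1 or DHT replicate 4 was left out of the edgeR fit.

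The low Scube3 values of adult DHT IP had no counterpart in the other libraries. In young IP the gene ranged from 0.268 to 7.45 CPM after DHT (median 3.15, n = 6) and from 0.528 to 10.5 CPM after vehicle (median 2.89, n = 6), and the groups overlapped almost fully. None of the 12 young IP libraries and none of the 11 adult supernatants fell below 0.1 CPM. The log2 fold change was -0.19 ± 0.82 in young IP and -0.25 ± 0.25 in adult supernatant. The DHT effect in adult IP differed from that in supernatant by -6.96 ± 0.96 (edgeR adjusted p = 0.00353), but with the IP and supernatant of a sample as a block the adjusted p was 0.612. The difference from the effect in young IP was -7.02 ± 1.32 and did not pass edgeR (adjusted p = 0.259), whereas DESeq2 gave 3.95e-06. The young IP without Cre held 1.57 CPM of Scube3 (95% interval 1.17 to 2.07). The part of untagged RNA in the vehicle values was not tested.

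**Figure D1:**
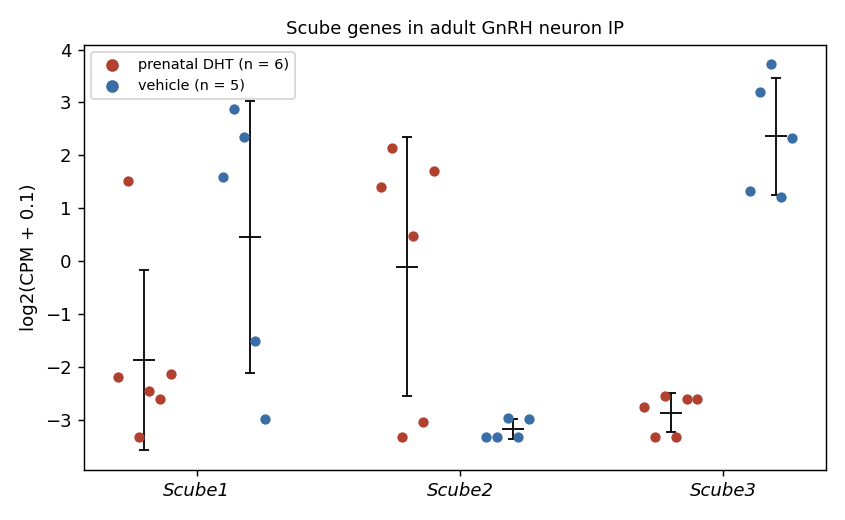
Level of Scube1, Scube2 and Scube3 in adult GnRH neuron IP as log2(CPM + 0.1), with 1 point per library, DHT on the left of each pair, and bars for mean and SD (n = 6 DHT and n = 5 vehicle). All 6 DHT libraries lie below all 5 vehicle libraries for Scube3, while for Scube1 and Scube2 the groups share low values.

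The other members of the family were as patchy between libraries but were not called. Scube1 ranged from 0.00 to 2.75 CPM after DHT (median 0.0995), against 2.91, 7.25, 5.00, 0.25 and 0.03 CPM after vehicle, and its log2 fold change was -2.55 ± 1.34 (edgeR adjusted p = 0.654). Scube2, which is known for releasing Hedgehog proteins from the cells that make them, ranged from 0.00 to 4.29 CPM after DHT (median 1.92), with no vehicle library above 0.03 CPM. Its fold change was 7.12 ± 1.58 with an edgeR adjusted p of 0.181, while DESeq2 gave 4.29e-05. Some DHT libraries of Scube2 lay above 1 CPM and others at or near 0, so the groups overlapped. In young IP the mean of Scube2 was 2.35 CPM after DHT and 2.54 CPM after vehicle, and in adult supernatant 2.94 and 2.50 CPM.

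Values near 0 were common in adult IP. Of 4072 genes with a mean of 1 to 10 CPM, 60.8% lay below 0.1 CPM in at least 1 of the 11 adult IP libraries and 611 of them did so in at least 5. In young IP 32.7% of 4342 such genes did so in at least 1 library and 118 in at least 5, and in adult supernatant 0.503% and 2 genes. Against that background, Scube3 was the 1 gene at 1 CPM or more in all vehicle and below 0.1 CPM in all DHT libraries, and 0 genes showed the opposite pattern. These limits were chosen after the values had been seen.

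At an unadjusted edgeR p below 0.05 there were 1318 genes (8.29%), of which 792 (4.98%) were higher and 526 (3.31%) lower in DHT IP. In 42 genes (0.264%) every DHT library lay above every vehicle library, and in 26 (0.164%) every DHT library lay below, 68 in all (0.428%). The genes named next, apart from Cog8, are among the 10 largest differences in each direction of these non-overlapping genes with at least 5 CPM in the higher group. None but Scube3 passed the adjusted threshold in edgeR. Besides Cog8, DESeq2 called Cnnm2 (DESeq2 adjusted p = 0.000653), Pik3r3 (0.00149), Oaf (0.0135), Mreg (0.00484), Mxd4 (0.0242) and Tmem192 (0.0375) among the genes named next.

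Cog8, a subunit of the conserved oligomeric Golgi complex, is named as a DESeq2 call without overlap. It ranged from 36.2 to 84.4 CPM after DHT (median 57.7), against 22.22, 27.97, 34.05, 30.63 and 24.41 CPM after vehicle. The groups did not overlap but came close to each other, and the log2 fold change was 1.12 ± 0.20 (edgeR adjusted p = 0.0633). Cog8 spans bases 107046289 to 107056689 of chromosome 8 (minus strand), and 28.2% of its exon bases are shared with Pdf, so its counts may be divided between the genes. It passed edgeR without DHT replicate 5 (adjusted p = 0.0177), DHT replicate 6 (0.0459), vehicle replicate 3 (0.0461) or vehicle replicate 4 (0.0421).

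Cnnm2, which encodes a membrane protein of magnesium handling, ranged from 20.2 to 40.8 CPM after DHT (median 26.3), against 6.33, 5.61, 6.27, 13.8 and 4.43 CPM after vehicle. Vehicle replicate 4 stood above the other vehicle libraries and still below every DHT library. Its fold change was 1.87 ± 0.40 (edgeR adjusted p = 0.181), and 0.0414 without vehicle replicate 4. Pik3r3, a regulatory subunit of phosphoinositide 3-kinase, ranged from 41.2 to 92.2 CPM after DHT (median 50.5), against 33.4, 14.6, 24.8, 8.28 and 22.7 CPM after vehicle, with a fold change of 1.43 ± 0.31. A predicted gene shares 24.3% of its exon bases.

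The other genes with higher values after DHT were Oaf (3.52 ± 1.07), Kcnj12, an inwardly rectifying potassium channel (1.55 ± 0.59), Haus3, a subunit of the augmin complex that nucleates microtubules (1.51 ± 0.55), Zfyve28 (1.40 ± 0.42), Stat2, a transcription factor of interferon signalling (1.38 ± 0.60), Rgag4 (1.33 ± 0.53) and Megf11 (1.28 ± 0.40). Their edgeR adjusted p ran from 0.376 to 0.512. The values of Oaf came from low levels, 2.13 to 8.39 CPM after DHT (median 6.25) against at most 1.65 CPM after vehicle. Its mean in young IP was 4.20 CPM after DHT and 5.39 CPM after vehicle, and in adult supernatant 4.47 and 4.24 CPM.

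**Figure D2:**
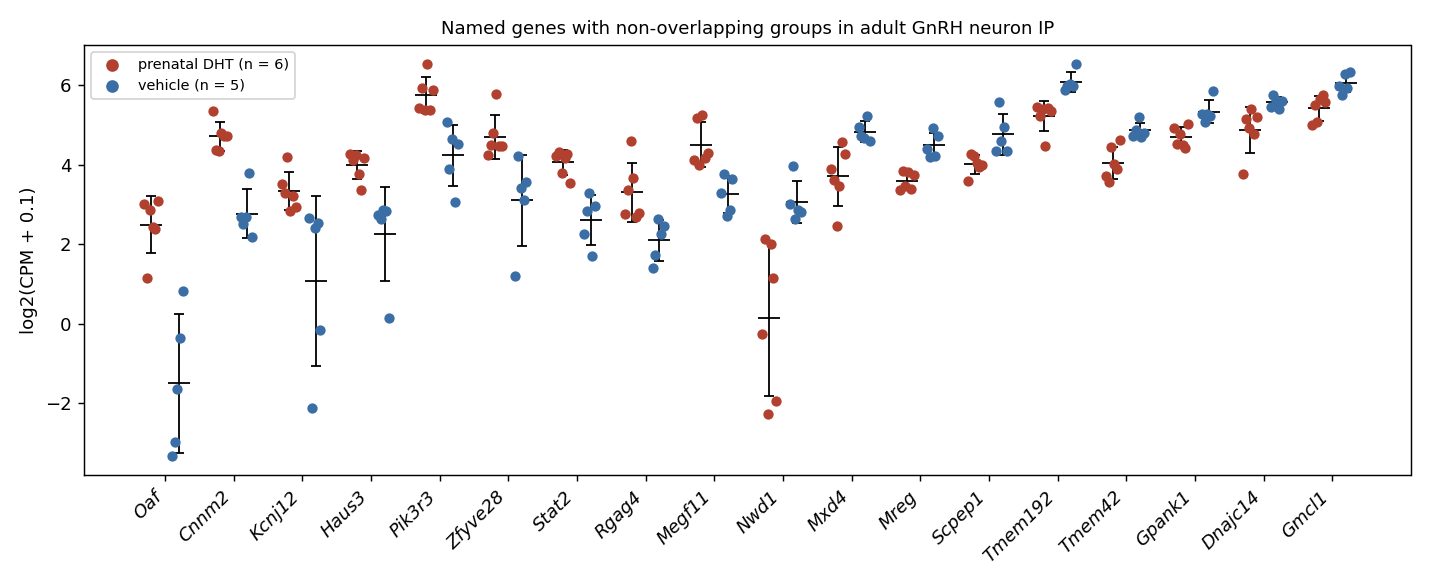
Level of 18 genes whose adult IP groups do not overlap, as log2(CPM + 0.1), with 1 point per library, DHT left of vehicle for each gene, and bars for mean and SD (n = 6 and n = 5). Oaf to Megf11 are higher after DHT and Nwd1 to Gmcl1 lower, and most of the differences lie between 0.6 and 2 on the log2 scale.

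Among genes with lower values after DHT, Mreg, which encodes melanoregulin, a protein of organelle transport in pigment cells, ranged from 10.1 to 14.2 CPM after DHT (median 12.1), against 21.0, 18.2, 30.0, 18.6 and 26.4 CPM after vehicle. The DHT libraries were tightly grouped below all vehicle libraries, with a fold change of -0.93 ± 0.23 (edgeR adjusted p = 0.312, DESeq2 0.00484). Mxd4, a repressor that competes with Myc for its partner Max, ranged from 5.37 to 23.6 CPM after DHT (median 13.5), against 30.7, 26.3, 25.2, 37.3 and 23.9 CPM after vehicle, so that the nearest libraries almost met. The log2 fold change of Mxd4 was -1.02 ± 0.27 (edgeR adjusted p = 0.312). Nwd1 had the largest difference after Scube3, at -2.23 ± 0.84, with 0.105 to 4.24 CPM after DHT against 6.14 to 15.5 CPM after vehicle.

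The remaining genes lower after DHT were Scpep1, a serine carboxypeptidase (-0.85 ± 0.30), Tmem192, a lysosomal membrane protein (-0.85 ± 0.22), Tmem42 (-0.80 ± 0.25), Gpank1 (-0.67 ± 0.23), Dnajc14, a chaperone cofactor (-0.64 ± 0.25), and Gmcl1 (-0.64 ± 0.21). Other genes share 25.8% of the exon bases of Tmem42, 19.9% of those of Dnajc14 and 18.6% of those of Gpank1, and the library kit did not mark the strand. Their edgeR adjusted p ran from 0.312 to 0.437. In adult supernatant none of these genes was called.

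DESeq2, run on the same 23 libraries, called 151 genes (0.951% of those tested), 112 of them (0.705%) higher and 39 (0.246%) lower after DHT. Of these calls, 109 had a mean below 5 CPM in their higher group and 103 an absolute log2 fold change above 4. In 80 of them, 10 reads were reached in 3 or fewer libraries of that group. The same shares over all genes tested are not given here, so these counts do not show whether the calls differ from other genes. In 19 of the 151 the groups did not overlap, 11 higher and 8 lower. Bcl2l11, which encodes the pro-apoptotic protein Bim, ranged from 0.708 to 7.18 CPM after DHT, against at most 0.116 CPM after vehicle (edgeR 5.33 ± 1.00, adjusted p = 0.0873). Kank2 and the zinc finger gene Zfp109 were likewise near 0 in vehicle libraries, with fold changes of 5.47 ± 1.18 and 4.28 ± 0.95. The mean of Bcl2l11 was 4.65 CPM in young DHT IP and 5.93 CPM in young vehicle IP. It was 2.09 and 1.70 CPM in adult DHT and vehicle supernatant, and the young IP without Cre held 3.79 CPM. Kank2 and Zfp109 stood at 2.89 and 3.73 CPM in the young IP without Cre, and at means of 3.78 and 2.01 CPM in young vehicle IP. The part of untagged RNA in these values was not tested. Hfm1, a helicase gene known from meiosis, had lower values after DHT, at no more than 0.0945 CPM after DHT against 0.157 to 4.05 CPM after vehicle. Ica1l was the best expressed of them, from 52.8 to 78.4 CPM after DHT (median 66.7), against 106, 127, 103, 88.0 and 85.9 CPM after vehicle (-0.63 ± 0.16, edgeR adjusted p = 0.312).

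Gnrh1, the gene that defines these cells, varied more between libraries of a group than between groups. It ranged from 664 to 13176 CPM after DHT (median 3940), against 6065, 1951, 5919, 10542 and 16067 CPM after vehicle. Libraries of both groups spread over the same range, with DHT replicate 2 the lowest, and the fold change was -0.58 ± 0.49 (edgeR adjusted p = 0.821). Gnrh1 stood 19.3 to 266 times higher in the IP than in its supernatant after DHT and 65.7 to 373 times after vehicle, so the label of the fraction holds in every library. In bulk IP, fewer GnRH neurons captured and less RNA per cell cannot be told apart.

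Gal, the neuropeptide galanin that GnRH neurons release with their hormone, ranged from 59.5 to 210 CPM after DHT (median 112), against 125, 131, 215, 350 and 290 CPM after vehicle. The groups overlapped. Its fold change was -0.84 ± 0.30 (edgeR adjusted p = 0.406), and -0.54 ± 0.19 with the Gnrh1 level as a covariate. Kiss1r, the kisspeptin receptor, had -0.54 ± 0.38 and Kiss1 -0.65 ± 0.46, and neither passed. All exon bases of Kiss1 are shared with other genes, so its counts are uncertain. The estrogen receptor gene Esr1 had -0.15 ± 0.75, with signs that differed between fits, and the progesterone receptor gene Pgr -0.18 ± 0.35.

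Several levels moved with Gnrh1 across the 11 adult IP libraries (6 relations, two-sided permutation test, adjusted over the 6). On the log2 scale, Gal rose with Gnrh1 (Pearson r = 0.863, p = 0.000650, adjusted p = 0.0013, Spearman rho = 0.809, p = 0.00406), and so did the sum of ribosomal protein transcripts (r = 0.947, p = 3e-05, adjusted p = 0.00012, rho = 0.918, p = 0.00025). The astrocyte list fell as Gnrh1 rose (r = -0.789, p = 0.00351, adjusted p = 0.00526, rho = -0.836, p = 0.0022). Without DHT replicate 2 and vehicle replicate 2, the libraries farthest from the median, r was 0.864, 0.848 and -0.709 for Gal, ribosomal proteins and astrocytes. Within the 6 DHT libraries alone r was 0.939, 0.948 and -0.850, and the vehicle group is too small for a value of its own. Kiss1r (r = 0.626), Rpl10a (0.950) and Esr1 (-0.723) also passed, and reads of Rpl10a may come from the gene or from the L10a-GFP tag.

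**Figure D3:**
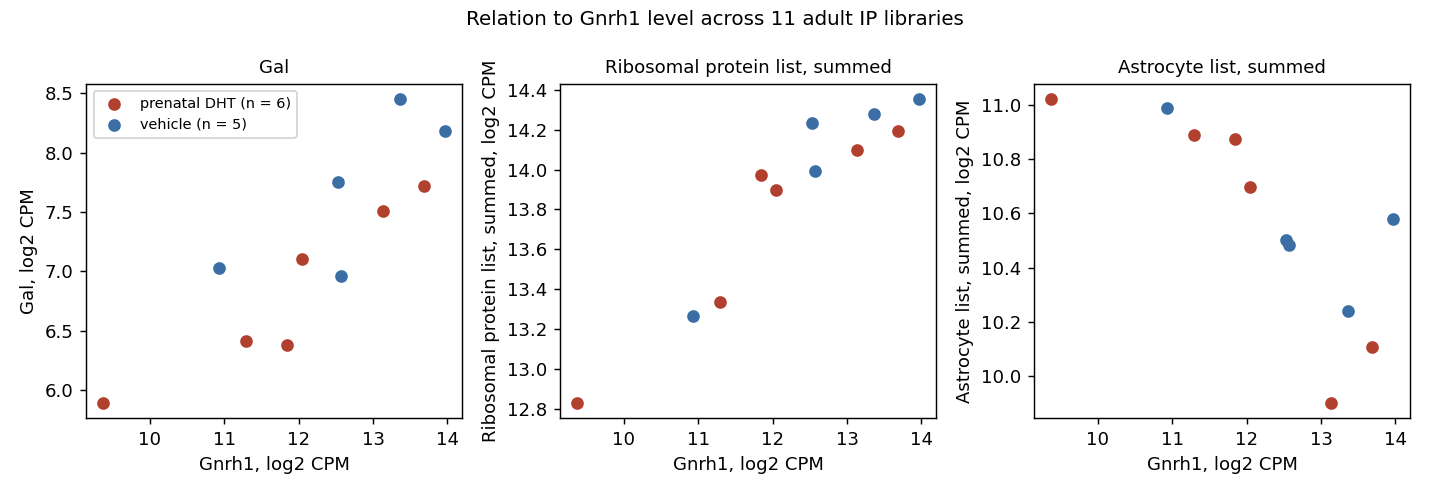
Levels of Gal, of ribosomal protein transcripts and of astrocyte markers (log2 CPM, vertical) against Gnrh1 (log2 CPM, horizontal) in the 11 adult IP libraries, 6 DHT and 5 vehicle. Gal and ribosomal protein transcripts increase with Gnrh1 and astrocyte markers decrease, across the 11 libraries.

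None of 13 measures of the libraries passed a test between DHT and vehicle (exact permutation tests, two-sided, smallest adjusted p = 0.872, smallest p the design allows 0.00216). They included Gnrh1, library total, the share of tested genes with no read (6.98% ± 2.18 after DHT, n = 6, and 7.35% ± 2.01 after vehicle, n = 5) and the summed markers of other cell types. The 15 astrocyte markers summed to 956 to 2081 CPM after DHT and 1210 to 2034 CPM after vehicle. The 13 oligodendrocyte markers summed to 1343 to 4393 CPM after DHT and 1712 to 2487 CPM after vehicle, and the 14 microglia markers to 53.9 to 156 CPM after DHT and 88.5 to 120 CPM after vehicle. Endothelial and mural markers summed to 213 CPM in DHT replicate 4, 70.5 CPM in vehicle replicate 4 and at most 23.6 CPM in the other libraries. The median of their fold changes was 1.28, -0.50 without DHT replicate 4 and 1.77 without vehicle replicate 4. No marker of the astrocyte, oligodendrocyte or microglia list was at 0 in all 11 libraries. The part of RNA from these cell types in the differences above was not tested.

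The gene lists below were compared by the counts of their members, beside 4.98% and 3.31% of all genes higher and lower at an unadjusted edgeR p below 0.05 and a median log2 fold change of 0.00 over all genes. Apart from Scube3, no member of any list was called. The count of all genes higher at that threshold also moved between fits, from 792 of 15890 in the main fit. It was 296 of 14167 in adult IP alone, 618 of 15837 without DHT replicate 2 and 1373 of 16200 without vehicle replicate 2. List counts from those fits are to be read beside these. For most lists the median with the Gnrh1 level as a covariate follows in parentheses. Leaving out 1 library at a time gave medians of 0.14 to 0.49 for GABA genes, 0.05 to 0.34 for synaptic vesicle genes and 0.20 to 0.43 for potassium channel genes, the highest value each time without vehicle replicate 2. The medians of glutamate genes (-0.06 without DHT replicate 4) and of granin and prohormone processing genes (0.07 without vehicle replicate 2) changed sign.

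Ion channel genes had mostly positive values. Of 35 potassium channel genes, 25 were higher after DHT, 5 of them at an unadjusted p below 0.05 and 0 lower, with a median of 0.26 (0.20 with the covariate). The count of 5 was 1 in adult IP alone and 2 or 3 without DHT replicate 2 or vehicle replicate 1, 3 or 5. In that list 1 gene was lower without DHT replicate 1, 2, 5 or 6 or vehicle replicate 4 or 5. Kcnma1, the large-conductance calcium-activated channel, had 1.07 ± 0.42, Kcnk3, a leak channel, 0.68 ± 0.28, and Kcnq3, an M-current subunit, 3.70 ± 1.63 from levels near 0. Of 29 sodium, calcium and HCN channel genes, 20 were higher, 3 at an unadjusted p below 0.05 and 0 lower, with a median of 0.23 (0.14 with the covariate). Among the 3 were Cacna1a, the pore of P/Q-type calcium channels (1.02 ± 0.39), and Cacnb2, an auxiliary calcium channel subunit (0.53 ± 0.22). The count of 3 was 5 without vehicle replicate 1 or DHT replicate 1 (then with 1 lower). It was 2, with 1 lower, without vehicle replicate 3, and stayed at 3 with 1 lower without vehicle replicate 5. The medians in young IP were -0.00 for potassium channels and -0.03 for the other channels.

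Of 25 GABA genes, 19 were higher after DHT, with 3 at an unadjusted p below 0.05 and 0 lower. Among them were the receptor subunit gene Gabrb2 (0.50 ± 0.23) and the GABA-synthesizing enzyme gene Gad2 (0.57 ± 0.25). The list's median of 0.28 was 0.08 with the covariate. The count of 3 was 0 in adult IP alone and without DHT replicate 4, vehicle replicate 3 or DHT replicate 2 (then with 1 lower). It was 1 without vehicle replicate 1, 4 or 5, 5 without DHT replicate 6 and 8 without vehicle replicate 2. Without DHT replicate 1 it stayed at 3, with 1 lower. Glutamate genes had 0 of 30 below that threshold and a median of 0.09 (-0.09 with the covariate), with Slc1a1, a neuronal glutamate transporter, at -0.63 ± 0.35 and Slc1a2, the main glial one, at 0.63 ± 0.36. Among 31 synaptic vesicle genes, 4 were higher at an unadjusted p below 0.05 and 0 lower, namely Unc13a and Rims2, which prime vesicles and organize release sites (0.76 ± 0.27 and 0.59 ± 0.21), the calcium sensor gene Syt1 (0.53 ± 0.22) and Cadps (0.48 ± 0.23). Their list's median was 0.13 (0.04 with the covariate). The count of 4 was 2 without DHT replicate 2, DHT replicate 4, vehicle replicate 4 or vehicle replicate 5 and 11 without vehicle replicate 2. Without DHT replicate 1 or 5 or vehicle replicate 1 or 5, 1 gene of that list was lower.

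Neuropeptide genes leaned the other way. Of 29, 20 were lower after DHT and 9 higher, 2 of them lower at an unadjusted p below 0.05, with a median of -0.28 (-0.19 with the covariate). The medians of the same list were -0.25 in adult supernatant and 0.18 in young IP. The count of 2 was 1 without vehicle replicate 4 and 3 to 5 without DHT replicate 1, 2 or 5 or vehicle replicate 1 or 2. At the same threshold 2 were higher without vehicle replicate 3 and 1 without vehicle replicate 5. The 2 lower in the fit of all libraries were Gal and Npy, neuropeptide Y, with Npy at -0.88 ± 0.35. Npy ranged from 5.40 to 10.9 CPM after DHT (median 7.07), against 10.3, 17.3, 16.8, 14.8 and 10.2 CPM after vehicle. Somatostatin (Sst, -0.53 ± 0.28) and corticotropin-releasing hormone (Crh, -0.69 ± 0.39) were next. In the adult supernatant Gal had -0.43 ± 0.20 and Npy -0.54 ± 0.26. Among 14 granin and prohormone processing genes, Ptprn2, a protein of dense-core vesicles, had -0.54 ± 0.26 and Prepl 0.36 ± 0.25, and the median was -0.08 (-0.16 with the covariate).

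Receptor and steroid lists each had at most 2 members below the unadjusted threshold. Of 13 steroid receptor genes, 1 was higher and 1 lower at an unadjusted p below 0.05. These were the glucocorticoid receptor gene Nr3c1 (0.67 ± 0.29) and Pgrmc2, a membrane-associated progesterone receptor component (-0.43 ± 0.17). Its relative Pgrmc1 had -0.29 ± 0.16. The median of the 13 steroid receptor genes was -0.12, and 0.62 without vehicle replicate 2. Of 15 androgen-responsive and steroid enzyme genes 0 were below the unadjusted threshold, with Hsd17b4 at 0.32 ± 0.27 and Igf1r at 0.45 ± 0.51. Of 15 kisspeptin, neurokinin and dynorphin genes 0 were below it, with the kappa opioid receptor gene Oprk1 at 1.44 ± 0.79 and Tac2, neurokinin B, at -0.81 ± 0.47. Of 29 peptide and metabolic hormone receptor genes 0 were below it, with the leptin receptor gene Lepr at 1.45 ± 0.74 and Crhr1 at 1.35 ± 0.89. Of 30 genes of hypogonadotropic hypogonadism, in which GnRH neurons fail to develop or to act, 1 was lower at an unadjusted p below 0.05, Prok2, a ligand that guides olfactory and GnRH neuron development (-1.60 ± 0.64). In the GnRH neuron list of 20 genes, Gal was the 1 member below it, Ebf2 had 2.54 ± 1.64 and the median was -0.15 (-0.01 with the covariate).

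Genes of neuronal activity and growth went both ways. Of 21 immediate early genes, 2 were higher and 2 lower at an unadjusted p below 0.05. Ier5 (0.88 ± 0.26) and Nr4a1 (0.75 ± 0.27) were higher, and Npas4, a factor induced by calcium entry, was lower at -2.54 ± 1.08, as was Jund (-0.26 ± 0.13). Without vehicle replicate 3, 0 were lower. Nr4a1 ranged from 27.5 to 70.6 CPM after DHT (median 38.2), against 22.98, 18.90, 32.31, 21.00 and 28.26 CPM after vehicle. Of 18 genes of immature neurons, 2 were higher and 1 lower at an unadjusted p below 0.05, among them Sox4 (0.58 ± 0.25) and Marcksl1 (-0.32 ± 0.11). In that list 0 were higher without DHT replicate 2 or vehicle replicate 3, and 4 without DHT replicate 5 or vehicle replicate 2. Circadian clock genes had 0 of 18 and cholesterol synthesis genes 0 of 22 below that threshold, with Bhlhe41 at -0.67 ± 0.35, Dbp at -0.24 ± 0.14 and Idi1 at 0.41 ± 0.24.

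Ribosomal protein genes nearly all had small differences of the same sign. Of 78, 76 had negative and 2 positive fold changes after DHT, with 0 at an unadjusted p below 0.05 and a median of -0.30. The median was -0.17 without DHT replicate 2, and limma-voom gave a median of -0.45 with 10 lower at an unadjusted p below 0.05. With the Gnrh1 level as a covariate, 38 were negative and 40 positive and the median was 0.00. Rps3 had -0.38 ± 0.21 and Rpl3 -0.37 ± 0.24. Oxidative phosphorylation genes had a smaller lean, with 27 of 36 negative and a median of -0.19 (-0.01 with the covariate, -0.09 without DHT replicate 2). Within that list Atp5a1, an ATP synthase subunit, had 0.27 ± 0.14 and Cox8a, a small subunit of cytochrome oxidase, -0.43 ± 0.28.

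**Figure D4:**
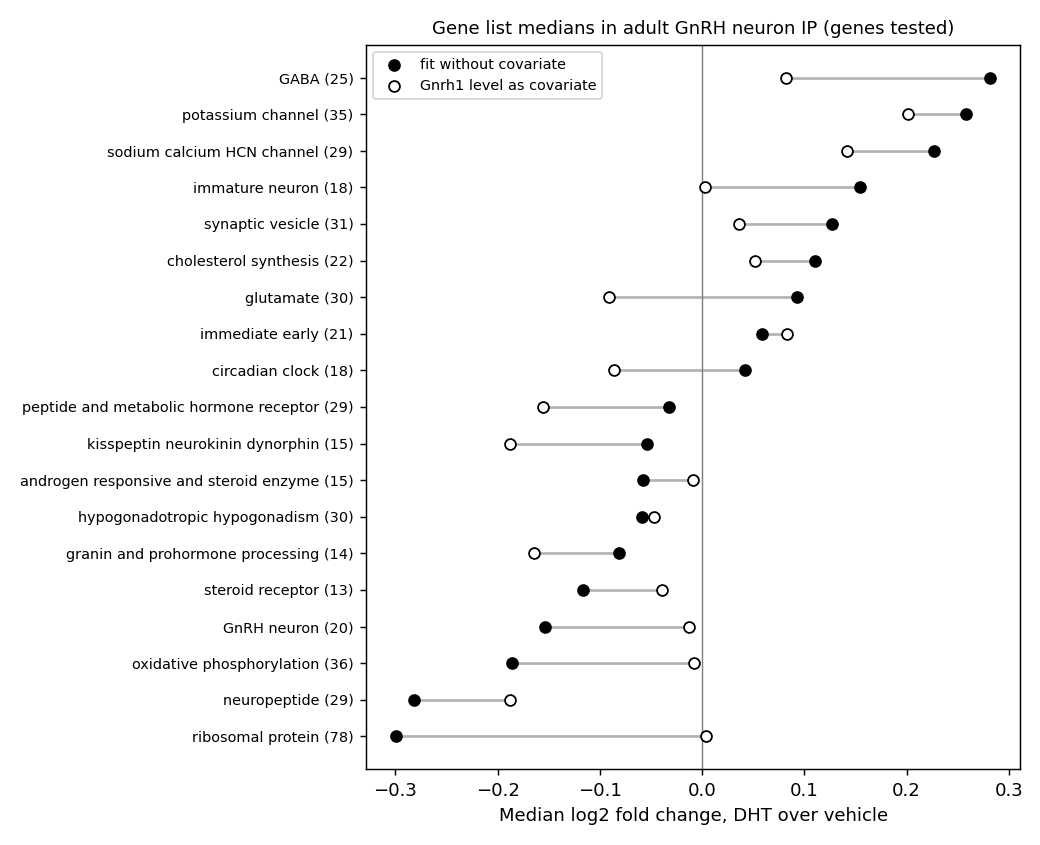
Median log2 fold change, DHT over vehicle (horizontal), of 19 gene lists in adult IP (vertical, with the number of genes tested), without a covariate (filled) and with the Gnrh1 level as a covariate (open). The ribosomal protein list moves to 0.00 with the covariate, and the channel and neuropeptide lists keep their sign.

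Fold changes in adult IP also followed the length of the transcript. Among the 89.9% of genes with an annotated length, the median was -0.16 in the quartile with the shortest merged exons, -0.03 and 0.05 in the middle quartiles and 0.16 in the longest. At an unadjusted p below 0.05, 108 genes of the shortest quartile were higher and 167 lower after DHT, and 283 of the longest were higher and 54 lower. In young IP the medians of the shortest and longest quartile were both -0.04, and in adult supernatant -0.03 and 0.02. With the Gnrh1 level as a covariate they were -0.02 and 0.06 in adult IP, without DHT replicate 2 -0.09 and 0.09, and without vehicle replicate 2 -0.22 and 0.27. The split of all genes at the unadjusted threshold was 616 higher and 627 lower with the Gnrh1 covariate, and 601 and 622 with the glial covariate. It was 618 and 618 without DHT replicate 2, the library with the least Gnrh1, and 1373 and 755 without vehicle replicate 2. Many channel and synaptic genes are long and ribosomal protein genes are short, and the part of length in their list medians was not tested.

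**Figure D5:**
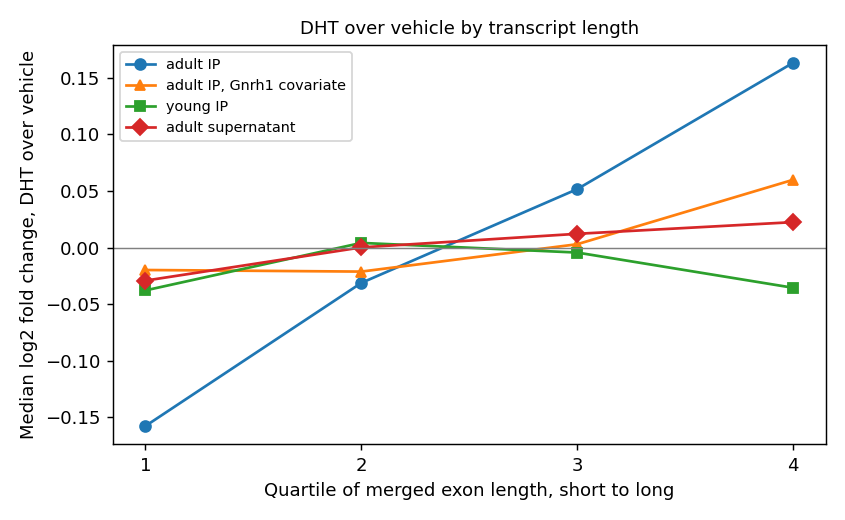
Median log2 fold change, DHT over vehicle (vertical), in 4 quartiles of merged exon length from short to long (horizontal), in adult IP with and without the Gnrh1 covariate, young IP and adult supernatant. The adult IP line runs upward from -0.16 to 0.16, and the others stay near 0.

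The DHT effect in adult IP was then tested against the effects in young IP and in adult supernatant. The effect in adult IP minus that in young IP gave 0 calls in edgeR, with 857 genes (5.39%) at an unadjusted p below 0.05, and 50 calls in DESeq2 (0.315%). The effect in adult IP minus that in adult supernatant gave 1 call in edgeR, Scube3 (0.00626%, with 880 genes or 5.51% at an unadjusted p below 0.05), 0 with each sample's IP and supernatant as a block, and 98 in DESeq2 (0.621%). Within young IP edgeR called 0 genes (239, 1.5%, at an unadjusted p below 0.05), and within adult supernatant 0 (338, 2.08%).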

How the data were processed

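Per the labels' protocols, RNA was purified with an RNeasy Plus Micro kit and poly(A) libraries were made with SMARTer v4, which does not mark the strand. The deposited table holds the authors' estimated counts for 23284 genes in 48 libraries, 98.5% of them exactly whole, and each was rounded. Per the submitters' processing notes, the tools included TopHat2 2.0.13, HTSeq 0.6.1, Cuffdiff 2.1.1 and DESeq2 1.14.1 with mm10; which of them gave the counts is not stated there.

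Adult IP totals ran from 28672556 to 47054029. The 23 IP libraries of Cre mice were fitted with edgeR 4.0.16 (R 4.3.3; filterByExpr minimum count 10, TMM, robust quasi-likelihood, Benjamini-Hochberg over all genes), and SEs come from the F statistic. Alternatives were DESeq2 1.42.0, RLE factors, limma-voom (3.58.1), other filters, adult IP alone, a replicate block, glial or Gnrh1 covariates and leaving out each library. Leaving out DHT replicate 3 with vehicle replicate 2 was added after seeing the data. The edgeR fit was tested on simulated data; with a separate spread for each age it made more false calls than a fit of adult IP alone. Groups and replicate numbers come from the labels.

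Named genes were those called, the 10 largest differences each way without overlap (unadjusted p below 0.05, at least 5 CPM, no predicted genes), 11 genes named whatever their values, the 2 to 4 list members with the smallest p, and 5 DESeq2 calls each way without overlap. Members and lists were chosen with earlier results of these data known. An IP was tied to the supernatant of the same number; their deviations correlated at 0.0433 to 0.361, and 9 of 11 correlated best with their own. Gene positions are from GENCODE (GRCm38). Motif counts in the Scube3 window, and some genes the naming rule took, are not reported here.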

Additional observations from a re-analysis of the deposited data

Results flagged for a closer look

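In 11 of 86 groups of named genes 1 library lay far from the rest of its group, and chance alone flags about 1 in 20 groups. They were Cnnm2 in DHT replicate 1 (40.8 CPM) and vehicle replicate 4 (13.8 CPM), Pik3r3 (92.2 CPM), Zfyve28 (54.5 CPM) and Tmem192 (22.1 CPM) in DHT replicate 4, Rgag4 in DHT replicate 3 (24.0 CPM), Scube1 in DHT replicate 2 (2.75 CPM), Nwd1 in vehicle replicate 2 (15.5 CPM), and Haus3 (0.995 CPM), Tmem192 (91.9 CPM) and Gpank1 (57.4 CPM) in vehicle replicate 5.

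The DHT effect on Scube3 in adult IP differed from that in adult supernatant by -6.96 on the log2 scale (edgeR adjusted p = 0.00353), and with the IP and supernatant of a sample as a block it was -6.87 with an adjusted p of 0.612.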

How the results depend on the processing

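The count of called genes was 1 in edgeR, 151 in DESeq2 (112 higher, 39 lower), and 0 in limma-voom, in adult IP alone, with the replicate block and without DHT replicate 3 and vehicle replicate 2 together. Leaving out 1 library at a time gave 0 to 7 calls, 0 to 6 of them higher and 0 to 2 lower. Scube3 kept its sign throughout, with an adjusted p of 0.6249 with the block and 0.0772 without that pair. Whether replicate numbers pair DHT with vehicle libraries was not settled by their deviations. Correlations at the same number were low, from -0.0158 to 0.0795, but 3 of 5 DHT libraries correlated best with their own number. The effect in adult IP gave 50 DESeq2 calls against young IP and 98 against supernatant, and 0 against supernatant with the IP and supernatant of a sample as a block.

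Signs changed for Esr1 (0.72 in limma-voom, 0.72 with the block, -0.59 to 1.02 without single libraries, 1.06 without the pair), Pgr (0.026 in limma-voom, -0.38 to 0.030 without single libraries, 0.044 without the pair), Rpl10a (0.11 with the Gnrh1 covariate, -0.29 to 0.0013 without single libraries), Hsd17b4 (-0.0084 with the Gnrh1 covariate) and Igf1r (-0.15 with the block). Without single libraries, differences in log2 summed markers ran from -0.065 to 0.16 for astrocytes, -0.057 to 0.25 for microglia, -0.65 to 0.75 for endothelial and mural cells and -0.21 to 0.039 for ependymal cells and tanycytes, and that in genes with no read from -1.02 to 0.45 percentage points. The causes were not tested. Adult IP replicates varied more than young ones.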
